A study of Mus musculus with 6 samples.

Results

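Transcripts of mitochondrial carriers and of the proteins that import precursors into mitochondria were measured in C2C12 myotubes. The myotubes were given palmitate or, as a control, bovine serum albumin (BSA). The members were all probe sets whose single gene symbol begins with Slc25a, Timm or Tomm. This rule gave 108 of the 22626 probe sets of the array that are not controls, for 55 of 12393 genes. Of these, 65 probe sets (33 genes) were carriers and 43 (22 genes) were named for the translocases of the inner (Timm) or outer (Tomm) membrane. C2C12 is an established mouse myoblast line that fuses into contractile myotubes when serum is lowered. All cells were grown with 20% fetal bovine serum, differentiated over 5 days with 2% horse serum and treated for 16 h. The palmitate group (3 arrays) received 500 µM of this saturated long-chain fatty acid, complexed with fatty acid-free BSA, and the BSA group (3 arrays) received 1% BSA with no palmitate named in its label. The labels number the replicates without saying whether they were separate cultures, and each p-value reflects the spread among these 6 arrays alone, which may be technical.

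Carriers of the SLC25 family sit mostly in the inner mitochondrial membrane and exchange nucleotides, phosphate, carboxylates, amino acids and cofactors between the cytosol and the matrix. They are made in the cytosol, mostly without a cleaved presequence. The receptors TOM20 and TOM70 and the channel TOM40 take precursors through the outer membrane, small TIM chaperones escort carriers across the intermembrane space, and the TIM22 complex inserts them. Precursors with a presequence pass instead through the TIM23 complex to its motor in the matrix. Muscle relies on the ADP/ATP carrier to supply its contractile proteins with ATP made in mitochondria.

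In the signals as deposited, translocase transcripts with a call were all higher with palmitate, and carriers with a call were split. Timm8a1, Tomm40, Tomm70a, Tomm20, Timm10 and Timm17a rose 1.38- to 1.99-fold, while 0 translocase probe sets fell. Among carriers, the pyrimidine nucleotide carrier Slc25a33 rose 2.78-fold, the ATP-Mg/phosphate carrier Slc25a25 2.06-fold and the iron carrier Slc25a37 1.47-fold. The peroxisomal carrier Slc25a17 was 1.91-fold lower, and the muscle ADP/ATP carrier Slc25a4 was 1.38- to 1.47-fold lower on 3 probe sets. These directions hold for the signals as deposited, in which the arrays had been brought to equal average signal. The arrays were also scaled to hybridisation controls, which are RNAs added for the hybridisation step and are called the added RNAs below. After that scaling, 0 translocase probe sets were called higher (3 had an unadjusted p under 0.05) and 4 others were called lower. The same scaling called 2.98% of all probe sets tested higher and 23.3% lower. The median log2 fold change was then 0.0011 for translocases and -0.34 for all probe sets tested.

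A call means an adjusted p under 0.05 from limma, fitted over the 13575 probe sets above a filter on dim signals (a geometric mean over the arrays of 267.1). Over all of them the SE of the log2 fold change had a median of 0.22. Of the members, 50 carrier and 39 translocase probe sets passed the filter. Of the carriers tested, 3 rose and 4 fell, and of the translocases tested, 10 rose and 0 fell in the signals as deposited (2 had a lower signal with an unadjusted p under 0.05). Over all probe sets tested, 8.63% were called higher, 10.6% lower and 19.2% in either direction. The shares among carriers were 6% higher and 8% lower, and among translocases 25.6% higher. The median log2 fold change was 0.017 for carriers, 0.33 for translocases and -0.0083 for all probe sets tested. The 3 palmitate arrays lay all above or all below the 3 BSA arrays for 37.2% of all probe sets tested, against 26% of carriers (6 above and 7 below) and 43.6% of translocases (15 above and 2 below). By gene, each through the tested probe set of highest mean signal, 3 of 27 carriers were higher and 2 lower, and 5 of 21 translocases were higher and 0 lower, beside 7.92% higher and 12.3% lower over all 7931 genes. With each gene's probe sets averaged, 3 carriers were higher and 4 lower, and 7 translocases were higher and 0 lower. Several probe sets of 1 gene read the same transcripts and are not independent.

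**Figure D1:**
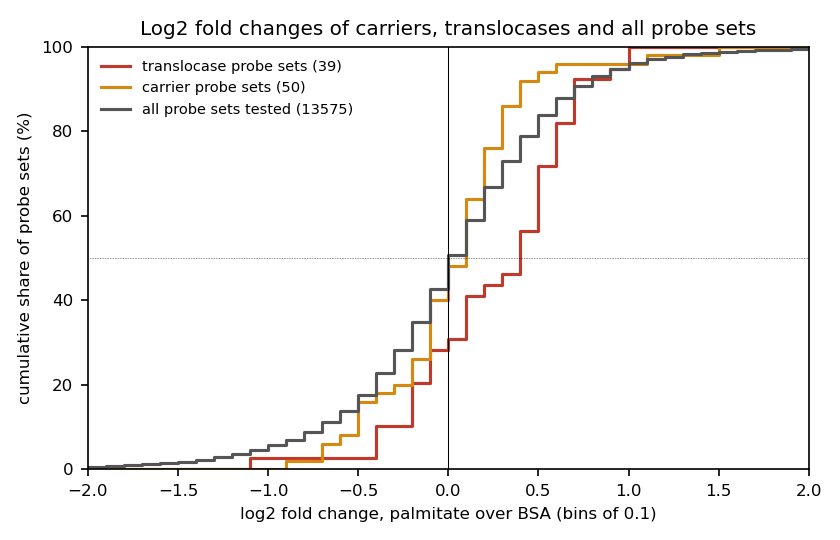
Cumulative share of probe sets (vertical axis, percent) against the log2 fold change of palmitate over BSA (horizontal axis, bins of 0.1) for 39 translocase probe sets, 50 carrier probe sets and all 13575 tested. The translocase line lies to the right of the other lines around the middle, with a median of 0.33 against -0.0083 for all probe sets in the signals as deposited (0.0011 against -0.34 after scaling to the r2 hybridisation controls).

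Over the probe sets tested, correlations ran from 0.943 to 0.959 within a group and from 0.883 to 0.910 between groups. All 12 myotube markers listed (among them Myog, Acta1 and Tnnc1) were above the filter, and 0 passed the threshold in either direction. Of these, 2 had a lower signal with an unadjusted p under 0.05, namely Ttn (-0.68 ± 0.26, limma adjusted p = 0.0895) and Actn2 (-0.94 ± 0.34, adjusted p = 0.0758). The median log2 fold change of the 12 was -0.11. After scaling to the added RNAs 5 were called lower, beside 23.3% of all probe sets tested. The summed signal of the 12 was 174403 to 178420 on palmitate arrays and 149764 to 242156 on BSA arrays. Of the 4 markers of undifferentiated or cycling myoblasts, Mki67 (-1.59 ± 0.17) and Top2a (-1.12 ± 0.15), which mark dividing cells, fell. Myf5 was above the filter and not called, with overlapping groups (-0.24 ± 0.28, limma adjusted p = 0.603). The summed signal of all 4 markers was 6165 to 7735 with palmitate and 12653 to 15788 with BSA. The part of these markers in the results below was not tested. Pax7 of muscle stem cells lay under the filter, as did all adipocyte and endothelial markers measured and the macrophage markers Ptprc, Cd68 and Lyz2. The macrophage marker Adgre1 was above it and read 328, 365 and 411 with palmitate, against 433, 696 and 491 with BSA, with all palmitate arrays below the BSA arrays and no call (-0.53 ± 0.32, limma adjusted p = 0.277). The log2 ratio of 3' to 5' signal, a measure of RNA integrity, ranged over -0.20 to 0.22 with palmitate and 0.21 to 0.35 with BSA for Gapdh. For beta-actin it was 0.24 to 0.51 with palmitate and 0.47 to 0.60 with BSA, also lower on the whole with palmitate, and its part in the results was not tested. In such bulk samples, fewer cells of a type and less RNA per cell cannot be told apart.

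Promoters are shown for the carriers with the largest rises (Slc25a33, Slc25a25), the muscle ADP/ATP carrier that fell (Slc25a4), and a chaperone and both import receptors that rose (Timm8a1, Tomm70a, Tomm20). Each is the stretch of 250 bases before the gene's start in RefSeq (mouse build GRCm38.p6), written in the direction of the gene, with matches to any of 7 motifs in capitals. The motifs were searched on both strands and chosen with the values known. They were TGACGTCA (cyclic AMP response element), CACGTG (E-box), TGATGNAA (ATF4 and CHOP composite element), CCGGAAG (ETS), TCAAGGTCA (oestrogen-related receptors) and the longer NRF1 and heat shock element motifs, and none of their matches in the promoters shown overlap.
Slc25a33 (chr4:149774268-149774517, - strand): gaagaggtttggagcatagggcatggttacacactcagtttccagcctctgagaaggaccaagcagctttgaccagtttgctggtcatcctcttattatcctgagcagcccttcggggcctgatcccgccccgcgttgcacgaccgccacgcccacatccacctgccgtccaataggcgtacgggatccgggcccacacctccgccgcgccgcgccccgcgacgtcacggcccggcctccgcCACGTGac
Slc25a25 (chr2:32424067-32424316, - strand): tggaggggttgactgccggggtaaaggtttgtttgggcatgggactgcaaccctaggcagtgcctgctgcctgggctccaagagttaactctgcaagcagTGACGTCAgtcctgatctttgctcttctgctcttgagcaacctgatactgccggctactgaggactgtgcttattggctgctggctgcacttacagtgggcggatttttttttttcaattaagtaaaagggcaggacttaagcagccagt
Timm8a1 (chrX:134541671-134541920, - strand): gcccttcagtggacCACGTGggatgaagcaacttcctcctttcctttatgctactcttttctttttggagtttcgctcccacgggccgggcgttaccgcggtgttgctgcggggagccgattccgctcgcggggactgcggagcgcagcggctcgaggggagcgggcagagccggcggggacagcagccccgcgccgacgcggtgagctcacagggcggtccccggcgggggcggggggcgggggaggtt
Tomm70a (chr16:57121464-57121713, + strand): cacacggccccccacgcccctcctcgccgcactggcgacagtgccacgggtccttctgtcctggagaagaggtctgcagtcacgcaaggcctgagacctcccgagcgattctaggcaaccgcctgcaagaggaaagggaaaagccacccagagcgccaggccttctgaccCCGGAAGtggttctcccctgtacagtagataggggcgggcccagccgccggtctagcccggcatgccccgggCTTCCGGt
Tomm20 (chr8:126945922-126946171, - strand): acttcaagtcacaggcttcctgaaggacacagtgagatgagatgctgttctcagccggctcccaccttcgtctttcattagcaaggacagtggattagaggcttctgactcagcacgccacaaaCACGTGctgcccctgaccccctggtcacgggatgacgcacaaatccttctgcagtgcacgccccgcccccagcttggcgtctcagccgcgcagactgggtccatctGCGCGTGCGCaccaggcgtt
Slc25a4 (chr8:46211063-46211312, - strand): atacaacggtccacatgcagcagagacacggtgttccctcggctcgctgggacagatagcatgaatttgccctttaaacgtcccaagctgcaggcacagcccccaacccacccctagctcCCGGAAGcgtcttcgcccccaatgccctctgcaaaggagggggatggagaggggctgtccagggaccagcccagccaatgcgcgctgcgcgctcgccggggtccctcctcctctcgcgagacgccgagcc
The matches were an E-box in Slc25a33 and Timm8a1, a cyclic AMP response element in Slc25a25, a pair of ETS motifs in Tomm70a, an E-box and an NRF1 motif in Tomm20, and an ETS motif in Slc25a4. For Slc25a25, the window shown is 1 of 3 in the table, chosen for its match. RefSeq windows were found for 46 of the 55 genes (57 windows). The ETS motif was in 26.3% of the members' windows and 6.91% of all 32851 windows, and the E-box in 15.8% and 6.02%. The NRF1 motif was in 3.51% of the members' windows and 3.74% of all, the cyclic AMP response element in 3.51% and 1.55%, and the composite element in 0 of 57 and 3.45% of all. The heat shock element and the motif of the oestrogen-related receptors were in 1 member window each (Timm9 and Timm8b), beside 0.466% and 0.387% of all windows. Both windows of the genes that fell (Slc25a4 and Slc25a17) and 2 of 10 windows of the genes that rose held the ETS motif, so its matches were found in both directions of change. A match shows that the letters are there and does not show that a factor binds.

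Among carriers of adenine nucleotides and phosphate, Slc25a4 fell and Slc25a25 rose. Slc25a4 encodes the ADP/ATP carrier that predominates in heart and skeletal muscle. Its probe set 1424562_a_at read 11242, 11995 and 12626 with palmitate, against 18385, 18584 and 15985 with BSA. Its probe set 1455069_x_at read 15739, 14819.8 and 13565 with palmitate, against 20730.3, 20149.9 and 19935 with BSA. Its probe set 1434897_a_at read 7404, 5727 and 7101 with palmitate, against 8178, 10190.3 and 10758 with BSA. On each of these 3, every palmitate array lay below every BSA array, with log2 fold changes of -0.56 ± 0.13 (limma adjusted p = 0.00952), -0.47 ± 0.12 (adjusted p = 0.0188) and -0.52 ± 0.16 (adjusted p = 0.0367), each ± SE with 3 arrays per group, as for all values of this form. Another probe set, 1424563_at, lay under the filter. With the arrays scaled to the added RNAs, all 3 stayed called (adjusted p = 0.000433, 0.00187 and 0.00228). Without BSA replicate 2 all 3 calls ended, with an adjusted p of 0.0503 at least. That of 1455069_x_at also ended without palmitate 3, and that of 1434897_a_at without palmitate 1, 2 or 3 or BSA 3, and over all of these fits the adjusted p reached 0.131 (1434897_a_at without BSA 2). The call of 1434897_a_at also ended with median scaling (adjusted p = 0.0681), 75th percentile scaling (0.0605) and no filter (0.0520).

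Slc25a5, the ADP/ATP carrier of most other and of dividing cells, was not called on any of its 8 probe sets, which had log2 fold changes of -0.17 to 0.26. Its brightest probe set, 1436874_x_at, read 24073, 20501 and 28457 with palmitate, against 21136, 26636 and 19529 with BSA, and the groups overlapped (0.12 ± 0.16, adjusted p = 0.651). Of the 8, 6 are of a probe set type (x) that can also bind related transcripts, as is 1455069_x_at of Slc25a4. Averaged over the 8, its log2 fold change was 0.086 ± 0.13. The mitochondrial phosphate carrier Slc25a3, which supplies phosphate for ATP synthesis, read 31153, 28590.4 and 29919 with palmitate, against 31022, 31226 and 27932 with BSA. Its groups overlapped almost fully, at -0.0073 ± 0.12 (adjusted p = 0.975).

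Slc25a25, a calcium-regulated carrier that exchanges ATP-Mg for phosphate, read 1748, 3348 and 2027 with palmitate, against 1028, 1234 and 1072 with BSA. Every palmitate array lay above every BSA array, and palmitate 2 was the highest by far. The log2 fold change was 1.04 ± 0.24 (limma adjusted p = 0.0101), and the call stayed on leaving out any 1 array (adjusted p up to 0.0322). Its relative Slc25a24 was at 0.011 ± 0.22 (adjusted p = 0.981), and Slc25a23 lay under the filter with 35.3 to 361 on palmitate arrays and 80.4 to 144 on BSA arrays.

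Slc25a33, which carries pyrimidine nucleotides into the matrix, had the largest rise of any member tested. Its probe set 1424211_at read 3162, 3561 and 3659 with palmitate, against 1314, 1480.4 and 985 with BSA. Every palmitate array lay well above every BSA array, and the log2 fold change was 1.48 ± 0.19 (limma adjusted p = 0.000268). The call stayed on leaving out any 1 array (adjusted p up to 0.00193) and after scaling to the added RNAs (1.14, adjusted p = 0.000765). Slc25a36, a second pyrimidine nucleotide carrier, was at 0.11 ± 0.20 and 0.42 ± 0.27 on its 2 probe sets, with overlapping groups.

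Slc25a17 encodes a carrier of the peroxisomal membrane for coenzyme A and other cofactors, so the family name does not place it in mitochondria. It read 808, 1162 and 1069 with palmitate, against 1949, 2354 and 1519.9 with BSA. The groups did not overlap, and it fell at -0.93 ± 0.22 (limma adjusted p = 0.0125), the largest fall among called members. The call ended without BSA replicate 2 (adjusted p = 0.0693). A second probe set lay under the filter. Among other carriers of cofactors, the NAD carrier Slc25a51 was at -0.29 ± 0.21 and -0.56 ± 0.20 on its 2 probe sets above the filter, the second with every palmitate array below the BSA arrays but without a call (adjusted p = 0.0697). The coenzyme A carrier Slc25a42 was at -0.19 ± 0.26 and the S-adenosylmethionine carrier Slc25a26 at 0.18 ± 0.35, both with overlapping groups.

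Of carriers for iron and glutathione, Slc25a37 (mitoferrin 1), which brings iron to the matrix, read 5888, 6413 and 6243 with palmitate, against 3443, 4237 and 5060.1 with BSA. The palmitate arrays were close together and above all BSA arrays, at 0.56 ± 0.16 (limma adjusted p = 0.0330). The call ended without any single array but BSA 3, with an adjusted p up to 0.0951, and after scaling to the added RNAs (adjusted p = 0.435). Slc25a28 (mitoferrin 2) read 1610, 1683 and 1379 with palmitate, against 1946, 1496 and 1294 with BSA, and its groups overlapped (-0.0036 ± 0.20). The glutathione carrier Slc25a39 had 3 probe sets at 0.050 to 0.36, and 0 were called.

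The carriers of carboxylates and carnitine gave 0 calls on 4 probe sets tested, where 1 (of Slc25a10) had an unadjusted p under 0.05. Over all probe sets tested, 19.2% were called in either direction. The dicarboxylate carrier Slc25a10 read 611, 704 and 562 with palmitate, against 1164, 1163 and 797 with BSA. Every palmitate array lay below the BSA arrays, and its log2 fold change of -0.72 ± 0.24 missed the threshold (limma adjusted p = 0.0568) but passed it in the fit over genes with averaged probe sets (adjusted p = 0.0350) and after scaling to the added RNAs (adjusted p = 0.0105). The oxoglutarate carrier Slc25a11, part of the malate-aspartate shuttle, read 1646, 1970.4 and 1493 with palmitate, against 2402, 2223 and 1943 with BSA, at -0.37 ± 0.18 (adjusted p = 0.184), and also passed there (adjusted p = 0.0320). The carnitine-acylcarnitine carrier Slc25a20 brings long-chain acyl groups such as that of palmitate to the matrix for oxidation. Its brighter probe set, 1423108_at, read 2133, 1183 and 1786 with palmitate, against 1457, 2288 and 2329.9 with BSA, with overlapping groups (-0.26 ± 0.25, adjusted p = 0.515). Its other probe set, 1423109_s_at, read 813, 754 and 713 with palmitate, against 631, 515 and 702 with BSA, with all palmitate arrays above, at 0.31 ± 0.24 (adjusted p = 0.406). The 2 probe sets thus differed in sign, and their average was 0.025 ± 0.19.

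Of all probe sets tested, 19.2% were called in either direction. Carriers of amino acids gave 0 calls on 11 probe sets tested, and 0 had an unadjusted p under 0.05. They were the ornithine carrier Slc25a15, the glutamate carrier Slc25a22, the basic amino acid carrier Slc25a29, the glycine carrier Slc25a38 and the branched-chain amino acid carrier Slc25a44, with log2 fold changes of -0.54 to 0.30. The lowest value came from 1 of 5 probe sets of Slc25a29, whose brightest was at 0.089 ± 0.20. Slc25a13, an aspartate-glutamate carrier, and Slc25a2, an ornithine carrier, lay under the filter. Slc25a13 read 22.5, 25.0 and 43.1 with palmitate, against 81.6, 127 and 29.7 with BSA. Among the remaining carriers, 0 of 8 probe sets were called (1 had an unadjusted p under 0.05). Slc25a45 read 711, 611 and 607 with palmitate, against 1109, 1127 and 868 with BSA, with every palmitate array below the BSA arrays, at -0.68 ± 0.22 (limma adjusted p = 0.0531, and 0.0300 in the fit over genes, where it passed). Slc25a14, related to the uncoupling proteins, read 117, 559.5 and 731 with palmitate, against 625, 524 and 728 with BSA, and palmitate 1 was far below all the other arrays. The uncoupling protein relative Slc25a30 (3 probe sets at -0.11 to 0.30), Slc25a46 of the outer membrane (-0.10 and 0.12) and Slc25a47 (-0.16) had overlapping groups. Slc25a35, Slc25a48 and Slc25a53 lay under the filter. In all, 15 carrier and 4 translocase probe sets were under the filter and were not tested, and detection calls were not used here. Of the 19, 1 probe set of Slc25a26 had all palmitate arrays below and 1 of Timm9 all above the BSA arrays. Slc25a1 and Slc25a12 were not analysed here.

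**Figure D2:**
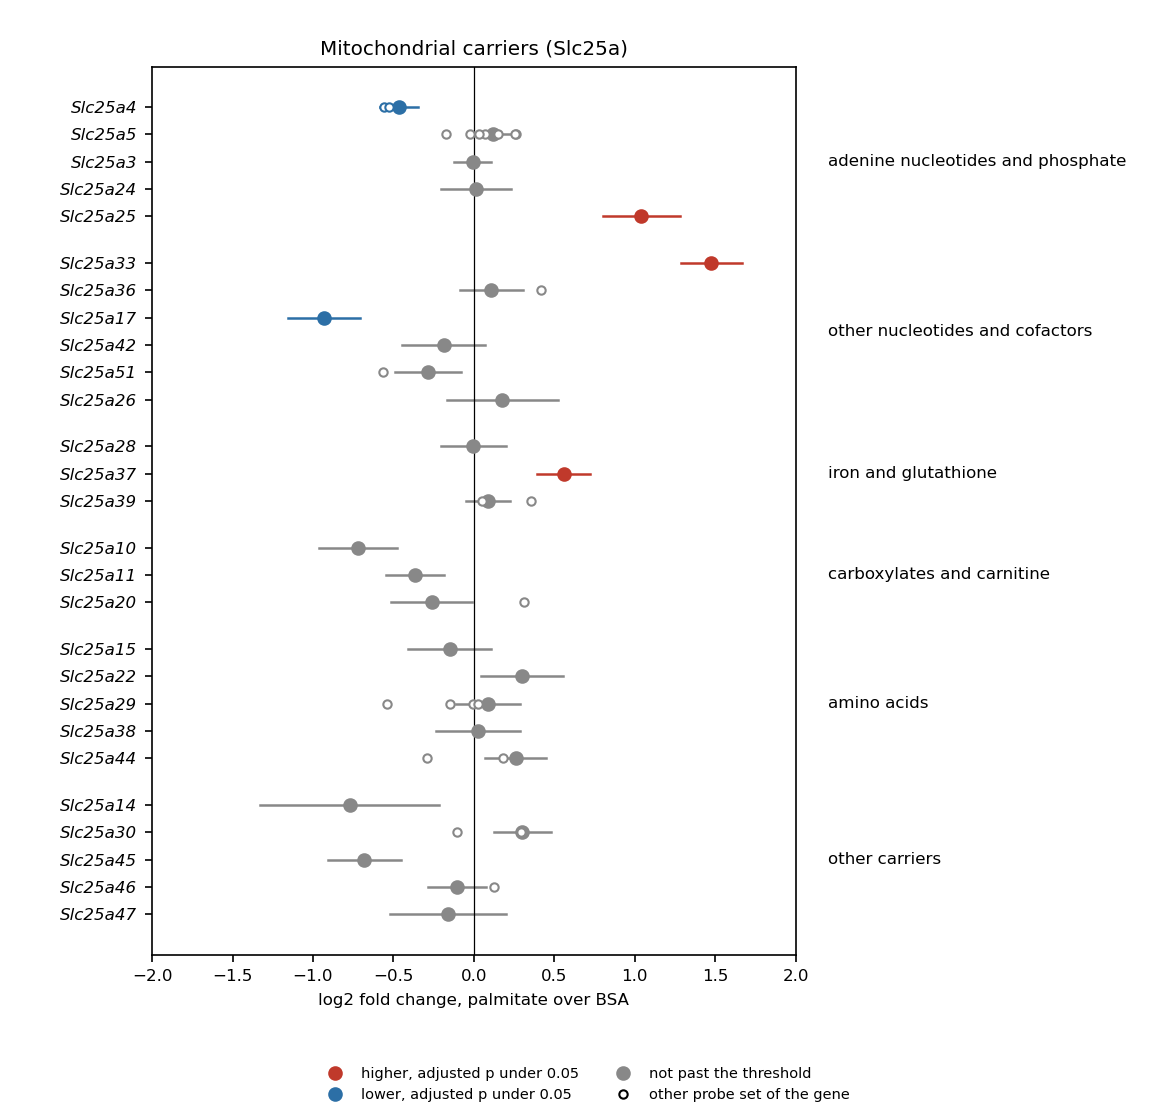
Log2 fold change of palmitate over BSA (horizontal axis) for the 27 carrier genes tested, grouped by what they carry. Filled points with SE bars are each gene's brightest probe set, open points its other tested probe sets, and colour marks calls (limma adjusted p under 0.05). Slc25a33 (1.48), Slc25a25 (1.04) and Slc25a37 (0.56) lie to the right, Slc25a17 (-0.93) and Slc25a4 (-0.47) to the left.

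At the outer membrane, 6 of 16 probe sets tested, from 3 genes, rose in the signals as deposited. There 0 fell (0 had a lower signal with an unadjusted p under 0.05). After scaling to the added RNAs, 1 of Tomm7 was called lower, beside 23.3% of all probe sets tested. Over all probe sets tested, 8.63% were called higher and 10.6% lower as deposited. The median log2 fold change of the 16 at the outer membrane was 0.41 as deposited. Tomm70a encodes the receptor for carriers and other precursors brought by cytosolic chaperones. Its probe set 1426676_s_at read 5077, 4413 and 5789 with palmitate, against 3099, 3044 and 3249 with BSA. Its probe set 1426675_at read 5862, 4901 and 5574 with palmitate, against 2822, 4126 and 4111 with BSA, and 1417192_at read 3153, 2961 and 2463 with palmitate, against 1513, 1638 and 2202 with BSA. On all 3 every palmitate array lay above every BSA array, with log2 fold changes of 0.69 ± 0.15, 0.58 ± 0.18 and 0.69 ± 0.19 (limma adjusted p = 0.00880, 0.0392 and 0.0255). The other, 1434243_s_at, was at 0.45 ± 0.28 with overlapping groups. The call of 1426676_s_at stayed on leaving out any 1 array (adjusted p up to 0.0448). That of 1426675_at ended without palmitate 1 or 3 or BSA 1 or 2 (adjusted p up to 0.121), and that of 1417192_at without palmitate 1 or 2 or BSA 1 or 2 (adjusted p up to 0.0976).

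Tomm20 encodes the receptor for presequences. Of its 5 probe sets, all had positive log2 fold changes (0.32 to 0.64) and 2 were called. Probe set 1423080_at read 12494, 11722 and 12118 with palmitate, against 8407, 9303 and 8619 with BSA. Probe set 1435534_a_at read 7608, 5429 and 5806 with palmitate, against 3650.3, 3346 and 5180.1 with BSA. Neither showed overlap between the groups, and the log2 fold changes were 0.47 ± 0.13 and 0.64 ± 0.19 (limma adjusted p = 0.0222 and 0.0378). The call of 1423080_at ended without palmitate 1 or 3 or BSA 2 or 3 (adjusted p up to 0.0838), and that of 1435534_a_at without palmitate 1 or 3 or BSA 1 or 2 (adjusted p up to 0.156). The brightest probe set of the gene, 1423079_a_at, read 33646, 25534 and 25989.9 with palmitate, against 17933, 21242 and 27213 with BSA, where BSA 3 reached into the palmitate range, and it was not called (0.37 ± 0.17, adjusted p = 0.149). Averaged over its 5 probe sets Tomm20 passed at 0.47 ± 0.13 (adjusted p = 0.0265).

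Tomm40, the channel of the outer membrane, read 2176, 3729.9 and 2707 with palmitate, against 1864, 1122 and 1338 with BSA. Palmitate 2 was the highest, and the lowest palmitate array lay a little above BSA 1. The log2 fold change was 0.99 ± 0.24 (limma adjusted p = 0.0135), and the call ended without BSA replicate 2 (adjusted p = 0.0681). Its relative Tomm40l read 540.4, 795 and 472 with palmitate, against 1175, 451 and 707 with BSA, with overlapping groups (-0.30 ± 0.35). The central receptor Tomm22 read 3816, 4362 and 3649.5 with palmitate, against 4129, 3350.3 and 3595 with BSA on its brighter probe set, at 0.096 ± 0.16, and was at -0.15 ± 0.16 on the other. The small subunit Tomm7, which takes part in the assembly of the complex, had 3 probe sets tested at -0.41 to -0.22, and 0 were called. The cytosolic cochaperone Tomm34 read 1888, 2615 and 1794 with palmitate, against 1883, 1078 and 1186 with BSA, with BSA 1 inside the palmitate range, at 0.63 ± 0.24 (adjusted p = 0.0904).

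**Figure D3:**
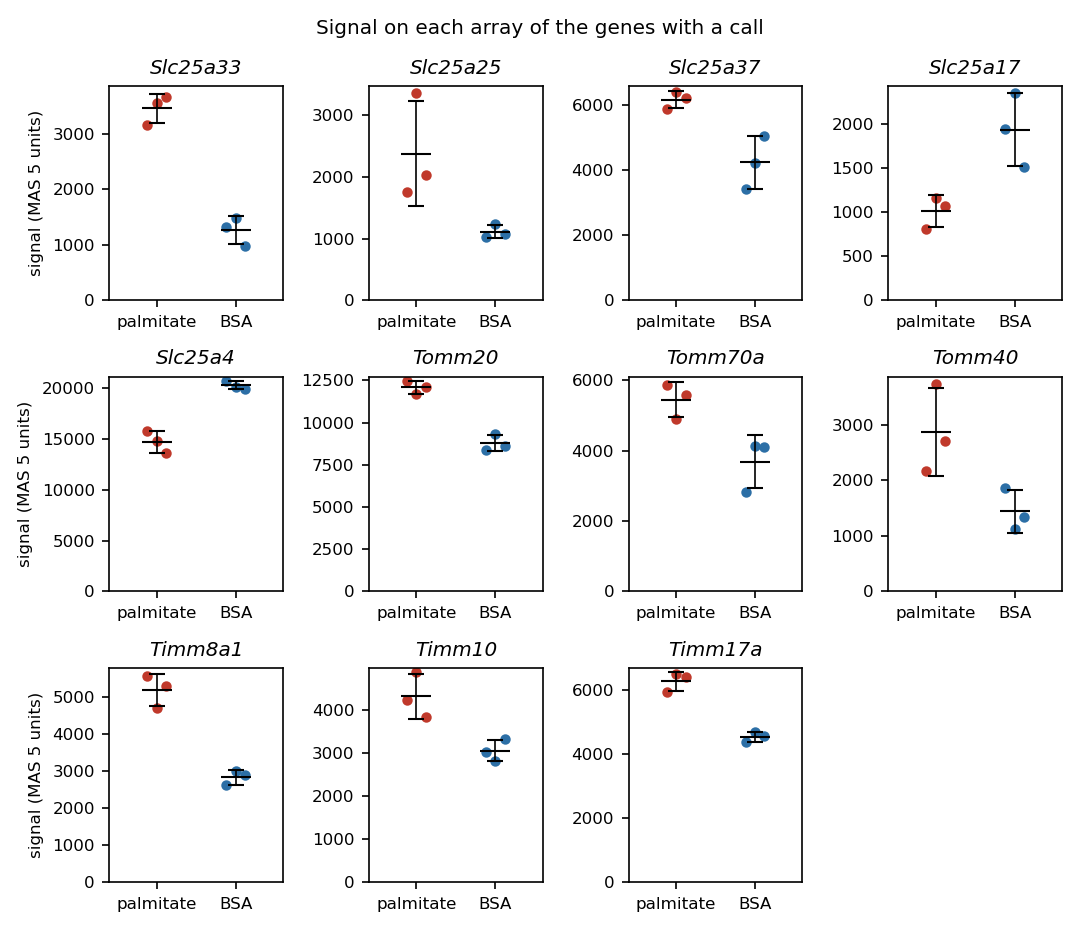
Signal (MAS 5 units, linear axis from 0) on each of 3 palmitate and 3 BSA arrays for the 11 genes with a call, each by its brightest probe set or, for Tomm20, by its brightest called one. Points are arrays and bars are the mean ± SD. The groups do not overlap in any panel, as with Slc25a33 (3162 to 3659 with palmitate, 985 to 1480.4 with BSA).

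Among the chaperones of the intermembrane space, 3 of 6 probe sets tested, from 2 genes, rose in the signals as deposited. There 0 fell (0 had a lower signal with an unadjusted p under 0.05). After scaling to the added RNAs, that of Timm8b was called lower, beside 23.3% of all probe sets tested. Over all probe sets tested, 8.63% were called higher and 10.6% lower as deposited. Timm8a1 encodes TIM8A, whose human counterpart is mutated in a deafness-dystonia syndrome. Its probe set 1416345_at read 5563, 4702 and 5278 with palmitate, against 2612, 2998 and 2878 with BSA. Its probe set 1416346_at read 2249.6, 2195 and 1467 with palmitate, against 956, 888 and 1132 with BSA. On both the groups lay well apart, at 0.87 ± 0.15 and 0.97 ± 0.22 (limma adjusted p = 0.00183 and 0.00880), and both calls stayed on leaving out any 1 array (adjusted p up to 0.0429). After scaling to the added RNAs both missed the threshold (adjusted p = 0.0509 and 0.0877). Timm10, which forms a hexamer with TIM9 that carries hydrophobic precursors, read 4232, 4869 and 3847 with palmitate, against 3034, 2822 and 3316 with BSA. The groups did not overlap, and it rose at 0.49 ± 0.16 (limma adjusted p = 0.0459), a call that ended whichever array was left out (adjusted p up to 0.161). Its partner Timm9 read 924, 1505 and 859.7 with palmitate, against 837, 712 and 917 with BSA, with palmitate 2 highest and overlapping groups (0.38 ± 0.25, adjusted p = 0.334). Timm13, the partner of TIM8A, read 4224, 5269 and 4524 with palmitate, against 6114, 4165 and 3541 with BSA, at 0.053 ± 0.20 (adjusted p = 0.883). Timm8b read 119, 665 and 927 with palmitate, against 988, 674 and 1097 with BSA, and palmitate 1 was far below all the other arrays, which gave -1.11 ± 0.60 with no call (adjusted p = 0.224). Without palmitate 1 its log2 fold change was -0.20. Timm8a2 lay under the filter.

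The TIM22 complex, which inserts carriers in the inner membrane, gave 0 calls on 7 probe sets. Of these, 2 had a higher and 1 a lower signal with an unadjusted p under 0.05. Over all probe sets tested, 19.2% were called in either direction. Timm22, the channel of the complex, read 2069, 2527 and 2297 with palmitate, against 4160.3, 2936 and 2723 with BSA on its brighter probe set. All palmitate arrays lay below the BSA arrays there, at -0.49 ± 0.19 (limma adjusted p = 0.0951), while the dimmer probe set was at 0.42 ± 0.43 with overlapping groups, so the 2 differed in sign. Timm29, a subunit of the complex found in animals, had both its probe sets with all palmitate arrays above the BSA arrays, at 0.54 ± 0.18 and 0.49 ± 0.19 (adjusted p = 0.0605 and 0.100), and passed when they were averaged (0.51 ± 0.16, adjusted p = 0.0374). Timm10b had 3 probe sets tested at -0.17 to -0.043.

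In the TIM23 complex, Timm17a rose and the other members were not called. Timm17a, which forms the presequence channel with TIM23, read 5939.6, 6493 and 6402 with palmitate, against 4363, 4675 and 4576 with BSA. The groups were tight and apart, at 0.47 ± 0.14 (limma adjusted p = 0.0313), but the call ended whichever array was left out (adjusted p up to 0.0947). Its paralog Timm17b read 2753, 2603 and 2761 with palmitate, against 3322, 3925 and 3866 with BSA on the brighter of 2 probe sets. There every palmitate array lay below the BSA arrays, at -0.45 ± 0.15 (adjusted p = 0.0584). It passed without BSA 1 (-0.53, adjusted p = 0.0391). Timm23 read 14853, 14666 and 16082 with palmitate, against 12869, 12359 and 10985 with BSA, with all palmitate arrays above, at 0.33 ± 0.13 (adjusted p = 0.0879). Timm44, which ties the motor to the channel, was at 0.066 ± 0.14, 0.18 ± 0.19 and 0.50 ± 0.21 on its 3 probe sets, and the receptor Timm50 at 0.23 ± 0.24. Timmdc1, an assembly factor of complex I that carries the name but is no import subunit, read 1063, 1024 and 938 with palmitate, against 601, 1276 and 1143 with BSA, at 0.073 ± 0.28.

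**Figure D4:**
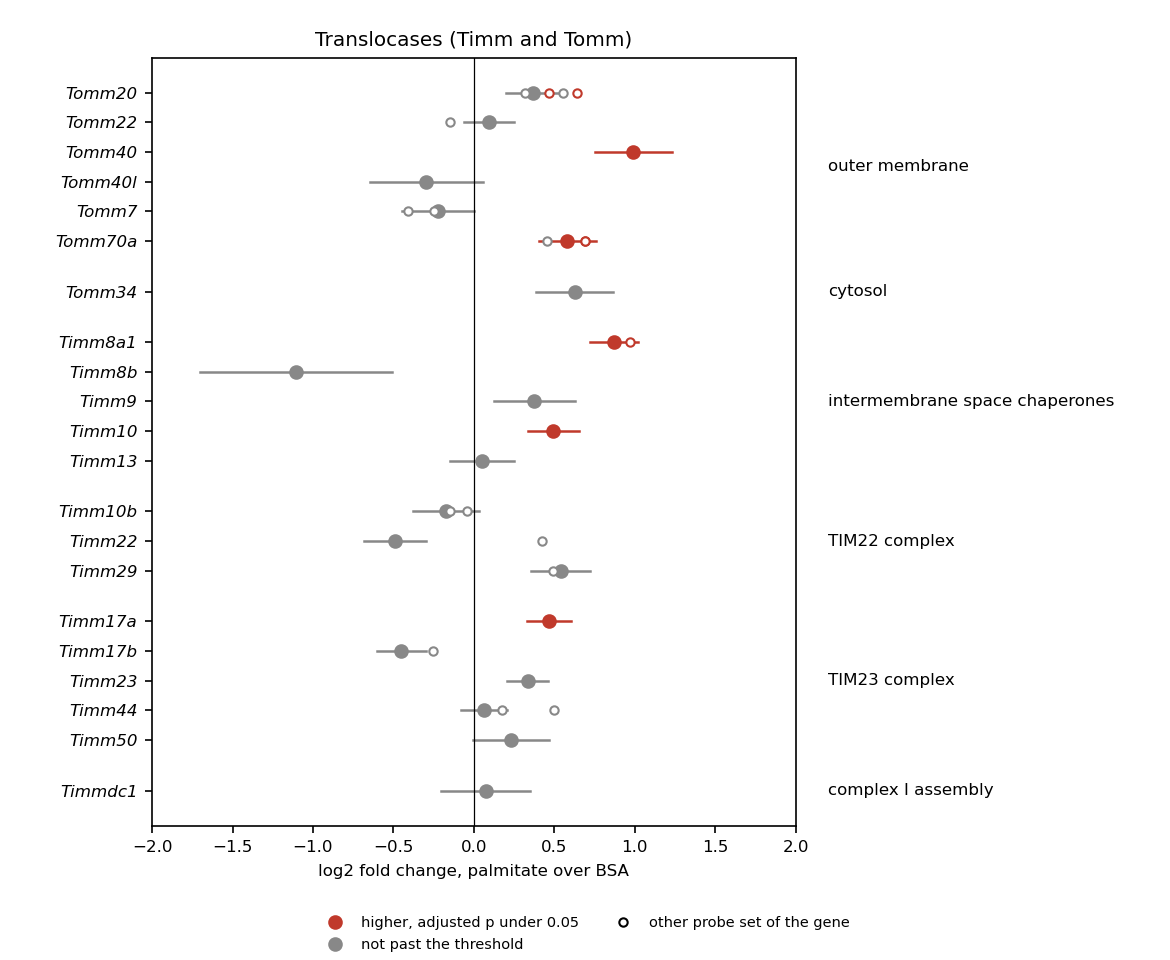
Log2 fold change of palmitate over BSA (horizontal axis) for the 21 translocase genes tested, grouped by place or complex. Filled points with SE bars are each gene's brightest probe set, open points its other tested probe sets, and red marks calls (limma adjusted p under 0.05). In the signals as deposited, shown here, calls lie between 0.47 and 0.99 and 0 were lower. After scaling to the r2 hybridisation controls 0 were higher and 4 lower. That scaling called 2.98% of all probe sets tested higher and 23.3% lower.

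Import genes with other names were measured through 1 probe set each, from a list chosen with earlier results of these data known. The counts in this list are thus not independent of those results. Of 25 measured, 7 rose and 2 fell in the signals as deposited, beside 7.92% higher and 12.3% lower over all genes tested. After scaling to the added RNAs, 1 (Hspd1) was called higher and 4 lower (Romo1, Apool, Immp1l and Samm50). Over all probe sets tested, that scaling called 2.98% higher and 23.3% lower. The motor chaperone Hspa9 (mtHSP70) read 16469.8, 18645 and 17008 with palmitate, against 11268, 11411 and 11486 with BSA, with all palmitate arrays above, at 0.61 ± 0.12 (limma adjusted p = 0.00475). The matrix chaperonin Hspd1 (HSP60) was at 0.93 ± 0.12 and its partner Hspe1 at 0.75 ± 0.19. The cytosolic chaperones Hsp90aa1 (0.71 ± 0.14), Hspa8 (0.38 ± 0.12) and Dnaja1 (0.52 ± 0.15), which hand precursors to TOM70, rose as well. Averaged over its probe sets, Dnaja1 was at 0.34 and not called (limma adjusted p = 0.102). Chchd4 (MIA40), which folds small TIM proteins in the intermembrane space, read 4949, 5299 and 5149 with palmitate, against 3166, 3514 and 3182 with BSA, at 0.64 ± 0.14 (adjusted p = 0.00847). Romo1, a small inner membrane protein of the TIM23 complex (-0.53 ± 0.15), and Apool of the cristae-forming MICOS complex (-0.60 ± 0.17) fell. On leaving out 1 array the calls of Hspa9, Hspd1, Hsp90aa1 and Chchd4 stayed (adjusted p up to 0.0347), while those of Hspe1, Hspa8, Dnaja1, Romo1 and Apool ended at least once (adjusted p up to 0.0641, 0.161, 0.143, 0.111 and 0.126). All 5 ended without palmitate 1, the only such array for Hspe1. Hspa8, Dnaja1, Romo1 and Apool also ended without palmitate 3 or BSA 3, Romo1 and Apool without palmitate 2, Hspa8, Dnaja1 and Romo1 without BSA 1, and Dnaja1 and Apool without BSA 2. The motor partners Grpel1 (0.33 ± 0.18) and Pam16 (-0.36 ± 0.27) and the outer membrane insertase Samm50 (-0.46 ± 0.17, adjusted p = 0.0782) were not called. Dnajc19 was not analysed here.

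Of 20 other mitochondrial transport genes measured, from a list chosen in the same way, 18 were above the filter. Of these, 0 rose (0 had a higher signal with an unadjusted p under 0.05) and 2 fell. Over all genes tested, 7.92% were higher and 12.3% lower. After scaling to the added RNAs, 7 of these transport genes were lower, beside 23.3% of all probe sets tested. The outer membrane protein Mtch1, a distant relative of the carriers, read 2311, 3781 and 2402 with palmitate, against 8610.3, 5508 and 5792 with BSA, at -1.24 ± 0.22 (limma adjusted p = 0.00254), and its paralog Mtch2 was at 0.13 ± 0.15. The sideroflexin Sfxn3 fell at -0.91 ± 0.19 (adjusted p = 0.00678). Both calls stayed on leaving out any 1 array (adjusted p up to 0.0424). The pyruvate carrier subunit Mpc1 read 3255, 3582 and 2925 with palmitate, against 4433, 4231 and 4554 with BSA, below all BSA arrays but without a call (-0.44 ± 0.15, adjusted p = 0.0587). The uncoupling protein Ucp3 was at 0.36 ± 0.46, and the outer membrane channels Vdac1, Vdac2 and Vdac3 at -0.12 ± 0.20, 0.0032 ± 0.12 and 0.12 ± 0.17.

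Median, 75th percentile and quantile scaling each left 10 translocase probe sets higher and 0 lower (19, 19 and 18 in either direction at an unadjusted p under 0.05), and 6, 6 and 7 carriers called. Of all probe sets tested, these 3 scalings called 18.5%, 19.1% and 19.3%. Scaling to the added RNAs changed more of the calls. On the 9 hybridisation control probe sets named r2, which read the added RNAs, the log2 signal averaged 13.15 ± 0.14 with palmitate and 12.82 ± 0.14 with BSA (SD, n = 3 each, exact permutation p = 0.1, two-sided, the smallest that 3 against 3 allows). With the arrays scaled to them, the median over all probe sets was -0.34, that of carriers -0.32 and that of translocases 0.0011. This scaling shifts every probe set by the same amount, so it leaves the gaps between these medians as they were. Over all probe sets 2.98% were then called higher and 23.3% lower. Of the 17 calls among members, 6 passed there in the same direction, namely Slc25a33, Slc25a25, Slc25a17 and the 3 of Slc25a4. The rises of all 10 translocase probe sets kept a positive sign at 0.13 to 0.66 but missed the threshold, and Timm17b, Timm22, Timm8b and Tomm7 had 1 probe set each called lower. The other 9 control probe sets for the same added RNAs shifted the median less, to -0.27, and 3 translocase probe sets (Tomm40 and both of Timm8a1) were called higher and 3 lower. What set the brightness of the controls was not tested. Of the 17 calls, 5 stayed on leaving out any 1 array, namely Slc25a33, Slc25a25, both of Timm8a1 and 1 of Tomm70a. All of the other 12 ended without BSA replicate 2, which left 2 carrier and 3 translocase probe sets called higher and 0 of either lower (7 and 2 at an unadjusted p under 0.05), with 1579 of 13575 called over all probe sets. Where limma's variance was not allowed to depend on signal, 2 carrier probe sets rose and 2 fell, and 4 translocase probe sets rose. In that fit 6.51% of all probe sets tested were called higher and 8.51% lower. There 7 of the 17 calls passed, namely Slc25a33, Slc25a25, Slc25a17, both of Timm8a1, Tomm40 and 1 of Tomm70a.

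**Figure D5:**
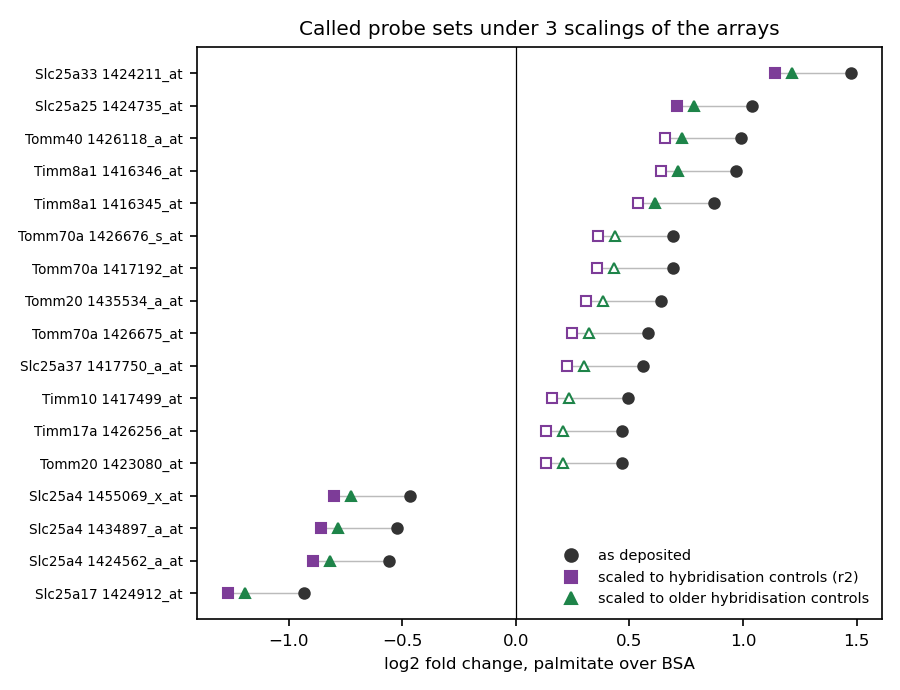
Log2 fold change of palmitate over BSA (horizontal axis) for the 17 called probe sets as deposited (circles), scaled to the r2 hybridisation controls (squares) and scaled to the older ones (triangles). Filled symbols passed an adjusted p of 0.05 in that fit. Scaling to the r2 controls moved each value to the left by 0.33, and 6 stayed past the threshold.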

How the data were processed

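Labelled RNA of 6 samples was hybridised to 1 mouse expression array each. The authors deposited 1 signal intensity per probe set and array, for which the submitters' processing notes name MAS 5, with settings not given in the sources used here. On every array the 2% trimmed mean signal was close to the same value (1500.50 to 1500.56), so the intensities had been scaled by the authors before they were deposited. All 6 columns matched a sample by name and 0 were left unused. The number of arrays limits the precision.

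Signals were turned to log2 with an offset of 0, and probe sets whose mean over arrays exceeded the 40th percentile were kept (13575 of 22626, controls left out). Palmitate was set against BSA with limma 3.58.1 in R 4.3.3 (lmFit and eBayes with an intensity trend), and p-values were adjusted by the Benjamini-Hochberg method over all probe sets kept. The procedure was tested on simulated data. Gene names came from the platform annotation. Of 22626 probe sets, 20380 had 1 symbol, 691 several and 1555 none, and none was named from a probe set with several. A gene's representative was its kept probe set of highest mean signal. Named were all members past the threshold, all representatives of member genes, and genes of the other lists past the threshold, with a few listed import and transport genes whatever their values. Members and lists were chosen with earlier results of these data known. Of the members, 27 were of a type (x or s) that can bind several transcripts.

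Alternatives were other scalings (median, 75th percentile, quantile, and both sets of 9 hybridisation control probe sets), an offset of 100, no filter, no intensity trend, the replicate number as a block, leaving out each array, and averaging a gene's probe sets. The scaling to the older set of controls was chosen after seeing the data.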

Additional observations from a re-analysis of the deposited data

How the results depend on the processing

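With 3 arrays per group, most calls among members lay near the threshold. The carrier median lay within 0.10 of 0 in every setting but the 2 scalings to added RNAs. An offset of 100 and quantile normalization ended or turned none of the 46 named values. Without the filter 6 calls among them ended. They were Timm10 (adjusted p = 0.0527), 1 probe set each of Tomm20 (0.0515), Tomm70a (0.0505) and Slc25a4 (0.0520), Hspa8 (0.173) and Dnaja1 (0.0566). This left 6 carriers, 7 translocases and 7 import partners called. The shares were 9.23% of 65 carrier and 16.3% of 43 translocase probe sets, beside 9.90% of all 22626. Median scaling ended 3, those of Slc25a4 1434897_a_at (0.0681), Romo1 (0.0518) and Hspa8 (0.0803), and 75th percentile scaling 1, that of Slc25a4 1434897_a_at (0.0605). Scaling to the r2 hybridisation controls gave 404 probe sets higher and 3169 lower in all, 8 carriers lower with a median of -0.32, and 4 translocase probe sets called (0 higher, 4 lower, median 0.0011). The older controls gave 546 higher and 2749 lower in all, 8 carriers lower (median -0.24), and 6 translocase probe sets called (3 higher, 3 lower, median 0.076). Import partners past the threshold were 5 of 25 under either, other transporters 7 and 6, and marker genes 7 and 4. Quantile normalization gave a translocase median of 0.29. Without an intensity trend, 4 carriers (2 lower), 4 translocases (all higher) and 5 import partners passed. The cause was not tested.

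Same-numbered arrays did not deviate together, and the labels do not say whether the numbers pair the arrays. Deviations of same-numbered arrays from their group means correlated at -0.23, -0.13 and 0.0091. With the replicate block, 4 carriers (2 lower), 4 translocases (4 higher) and 5 import partners passed, against 7, 10 and 9 without it. With it 14.5% of all probe sets tested passed, beside 8% of carriers and 10.3% of translocases. The block changes the spread and not the log2 fold changes of this balanced design.

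On leaving out 1 array, 1579 to 2315 probe sets passed in all (746 to 1085 higher, 833 to 1282 lower). Carriers past the threshold ranged over 2 to 7 (0 to 4 lower, median -0.035 to 0.042), and translocases over 3 to 8 (3 to 8 higher, 0 to 1 lower, median 0.27 to 0.36). Import partners ranged over 4 to 7. The lowest counts of carriers and translocases came without BSA replicate 2.

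Only values that were not called changed sign. Scaling to the r2 and to the older controls gave -0.22 and -0.14 for Slc25a5, -0.28 and -0.21 for Timm13, -0.27 and -0.19 for Timm44, -0.10 and -0.028 for Timm50, -0.24 and -0.16 for Tomm22, and -0.20 and -0.13 for Mtch2. Grpel1 was at -0.0055 with the r2 controls alone. Slc25a3 was at 0.019 with median and 0.024 with 75th percentile scaling. Averaged over probe sets, Slc25a20 was at 0.025 and Tomm22 at -0.025. On leaving out 1 array, Slc25a3 ranged over -0.059 to 0.024, Slc25a5 over -0.0013 to 0.25, Timm13 over -0.12 to 0.28 and Pam16 over -0.59 to 0.039.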

Other observations

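Within several pairs of related members the difference in log2 signal on an array moved with palmitate. The pairs were chosen with the values known, and a difference between 2 probe sets also holds their unequal brightness, so only its change between groups is given. Timm8a1 minus Timm8b was higher by 1.98 with palmitate, with palmitate replicate 1 far above the others at 5.55, and by 1.02 without that array. Slc25a33 minus Slc25a36 was higher by 1.37, Tomm40 minus Tomm40l by 1.29, Slc25a25 minus Slc25a24 by 1.03 and Timm17a minus Timm17b by 0.92. Slc25a4 minus Slc25a5, the muscle against the general ADP/ATP carrier, was at -1.07 to -0.47 on palmitate arrays and -0.40 to 0.030 on BSA arrays, a change of -0.58. In each of these 6 pairs the groups did not overlap. The exact permutation p was 0.1, two-sided, the smallest that 3 against 3 arrays allow (0.117 adjusted over the 7 pairs by Benjamini-Hochberg). The first gene of each of the 6 was itself called without overlap, so these gaps are not independent of those calls. Among single probe sets, 37.2% of all tested had no overlap. Both probe sets of the Slc25a4 and Slc25a5 pair are of the type (x) that can also bind related transcripts. In Slc25a37 minus Slc25a28, the 2 mitoferrins, the groups overlapped at 1.87 to 2.18 with palmitate and 0.82 to 1.97 with BSA (exact permutation p = 0.3).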
